A study of Mus musculus with 59 samples.

Results

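The cytochrome P450 enzymes of the Cyp2, Cyp3 and Cyp4 families were followed in lung, liver and forestomach of mice dosed with benzo(b)fluoranthene (BbF), a polycyclic aromatic hydrocarbon. Members were all genes on the array whose symbol starts with Cyp2, Cyp3 or Cyp4 followed by a subfamily letter and a number, and the choice used no measured value. There were 75 such genes with 95 probes, of 37163 genes or transcripts with 55681 probes in all. Of the 75, 45 belonged to Cyp2, 8 to Cyp3 and 22 to Cyp4, 4 are pseudogenes (Cyp2d13, Cyp2d37-ps, Cyp4b1-ps2 and Cyp4f41-ps), and 16 had more than 1 probe. No probe was matched to Cyp2a5, Cyp2c40, Cyp2c69, Cyp2j7, Cyp2j12 or Cyp3a41a, and these are not analysed here. Many of these genes lie in clusters of near-identical copies (Cyp2c, Cyp2d, Cyp3a and Cyp4a above all), the probe sequences were not used here, and a signal given for one copy may include RNA of another.

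Male Muta™Mouse, a transgenic strain that carries a lacZ reporter in every group and is used for mutation assays, were about 16 weeks old. They received olive oil by gavage every day over 28 days, either alone (vehicle, 0 mg/kg-bw/day) or with BbF at 25 (low), 50 (medium) or 100 (high) mg/kg-bw/day, and tissues were taken 72 hours after dosing ended. Groups held 5 mice per tissue, apart from low-dose lung with 4, which gave 59 arrays, and the tissues of 1 animal share its mouse number (vehicle mice are 1 to 5, low-dose mice 6 to 10, medium-dose mice 11 to 15 and high-dose mice 16 to 20). The labels conflict on the compound: titles and protocol name BbF, an exposure label names benz(a)anthracene. Between these names the doses point to BbF. They match the series that the paper gives for BbF, while every benz(a)anthracene dose in the paper is lower than its counterpart here. RNA came from random pieces of whole tissue, so that more cells of a type and more RNA per cell cannot be told apart.

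Cytochrome P450 enzymes insert oxygen into lipophilic compounds. Members of the Cyp2 and Cyp3 families oxidize drugs, steroids and other foreign or endogenous compounds, and those of the Cyp4 family mainly hydroxylate fatty acids and eicosanoids at the end of the chain. Hepatocytes are known to express most of them, and a few are known for their expression in airway or squamous epithelium. Several are induced through the nuclear receptors CAR, PXR and PPAR alpha, whereas the Cyp1 enzymes that activate polycyclic aromatic hydrocarbons are induced through the aryl hydrocarbon receptor.

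Each value is log2(Cy5/Cy3), the tissue RNA over a reference RNA pooled from mouse cell lines, and is called a log2 ratio. It compares a probe with itself between samples, and gives no order between genes. For members with several probes the probe brightest on average over all arrays is quoted. A gene was called changed when any of its probes passed limma's moderated test with an adjusted p (Benjamini-Hochberg, over all probes) of at most 0.05 and a difference of at least 1.5-fold. Values after ± are SDs over 5 mice for levels and standard errors (SE) for differences.

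Markers followed the labelled tissues: the mean of alveolar type II genes lay between 5.34 and 6.06 in lung, that of hepatocyte genes between 4.73 and 6.53 in liver, and that of squamous keratin and epithelial genes between 3.92 and 4.46 in forestomach. The third liver slide stood apart, with at most 12.9% of probes well above background in Cy5 against 37.0 to 46.2% on the other liver arrays. It held 1 vehicle mouse (5), 2 low-dose (6, 10), 2 medium-dose (11, 15) and 3 high-dose mice (18, 19, 20), and every liver result below is affected by it. In forestomach, 12 of 20 arrays had a high level of Atp4a, the acid pump of glandular stomach (3.95 to 6.53, against at most 1.85 on the other 8), and of the 5 arrays per group these were 2 in vehicle, 3 each in the low-dose and medium-dose groups and 4 in the highest. The lung array of mouse 6 carried forestomach keratins (Krt13 4.17, Krt4 5.73). As a check of exposure, lung Cyp1a1, the classical target of the aryl hydrocarbon receptor, was 4.47 ± 1.13 (SE) higher at the high dose (limma, adjusted p = 0.0202). In lung it was not called at the low or medium dose (-1.29 and 0.20, limma, adjusted p = 0.849 and 0.968). At the high dose it was not called in liver (2.75, adjusted p = 0.555) or forestomach (1.08, adjusted p = 0.810). The check thus covers high-dose lung only. Vehicle mouse 2 also had Cyp1a1 of 8.39 in lung, within the high-dose range of 5.99 to 9.38, and 2.84 in liver. On Cyp1a1, the library labelled vehicle mouse 2 thus goes against its label. Its lung Ephx1 and Cyp4b1, given below, lay within the range of the other vehicle mice. Values without mouse 2 are given where they change a call.

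In vehicle mice, most members were detected in liver and fewer in the other tissues. A gene was counted as detected when a probe was well above background on every vehicle array of the tissue, as flagged by the scanner software. Liver detected 42 of 75 members (56%), against 16.3% of all genes, and without the third slide 55 of 75 (73.3%), against 44.1% of all genes. Lung detected 24 members (32%), against 49.3% of all genes, and forestomach detected 25 (33.3%), against 45.5%. The members were thus detected more often than genes in general in liver and less often in lung and forestomach, which is a description of the shares, with no test. In all, 25 members were detected in liver only, 10 in all 3 tissues, 9 in lung and forestomach but not liver, and 20 on all vehicle arrays of no tissue. These counts include the third liver slide. Of the 9, all but Cyp4f39 were well above background on 4 of the 5 vehicle livers. The same held for Cyp2c55, Cyp2g1, Cyp2j5, Cyp2u1 and Cyp3a41b among the 20. Cyp2b9 and the pseudogene Cyp4b1-ps2 were detected in lung alone, and Cyp2c65 and Cyp2c66 in forestomach alone. Cyp2w1 and Cyp4f37 were never well above background on any of the 59 arrays.

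Liver led the members at baseline. Of 75 members, 48 were called higher in liver than in lung and 7 higher in lung (12.7% and 18% of all genes), and 47 were called higher in liver than in forestomach and 4 higher in forestomach (10.5% and 15.1% of all genes). Between lung and forestomach, 9 members were higher in lung and 10 in forestomach (12.6% and 11.7% of all genes), a share close to that of all genes. Counting members called higher in 1 tissue than in both others, 45 were highest in liver, 5 in lung and 4 in forestomach, where 7.49%, 9.39% and 6.43% of all genes did so. The 45 included all 10 Cyp2d members, 11 of 13 Cyp2c, 6 of 8 Cyp3a and 5 of 8 Cyp4a, whereas no Cyp2b or Cyp4b member was among them. Each slide held 1 tissue, so slide and tissue cannot be told apart in these comparisons.

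**Figure D1:**
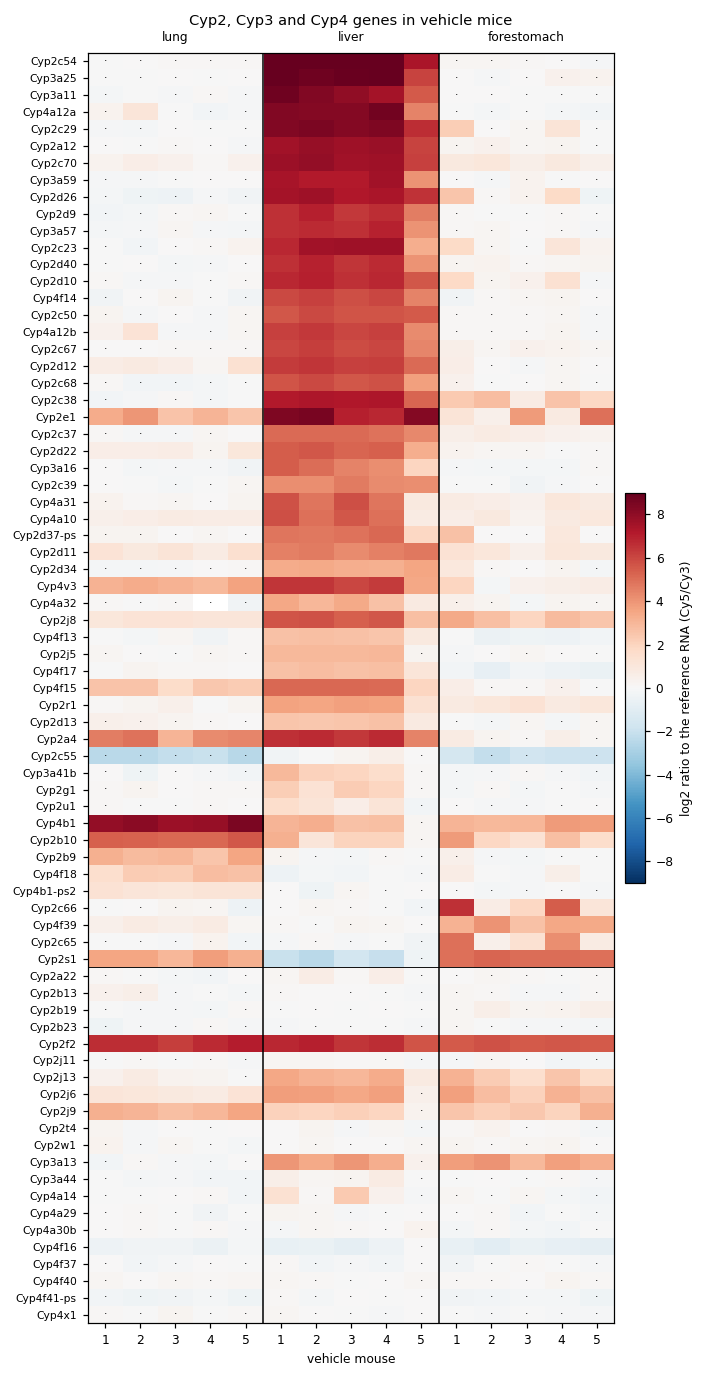
Log2 ratio (colour) of all 75 members (rows) in each vehicle mouse (columns, 5 per tissue), with a dot where the quoted probe was not well above background and blank where a value is missing. Above the black line, members called higher in liver (45), lung (5) and forestomach (4) than in both other tissues are ordered by their lead. The liver array of mouse 5, on the third slide, is paler than the other 4.

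The liver-led members named here came from the subfamilies that oxidize steroids, drugs and fatty acids. Cyp2c54, a Cyp2c enzyme that forms epoxides of arachidonic acid, had log2 ratios of 9.11, 9.18, 9.35, 9.11 and 7.37 in the livers of vehicle mice 1 to 5. In lung and forestomach it was not well above background on any vehicle array. The last liver value, from the third slide, was the lowest of the 5 and was still far above the other tissues. It was called higher in liver than in lung and in forestomach (limma, adjusted p = 9.86e-13 and 5.14e-13). Where a probe was not well above background on any vehicle array of a tissue, the difference has only a lower bound, taken from the Cy5 signal with the dim tissue set to the lowest signal that counts as above background. Such bounds use 1 dye and are open to dye bias because dyes were not swapped, and they are printed only where they do not exceed the fold of the ratio, which leaves out Cyp2c54.

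The main drug and steroid hydroxylases of the Cyp3a subfamily followed the same order. Cyp3a11 had 8.78, 8.30, 7.95, 7.48 and 5.51 in the 5 vehicle livers, and its mean of 7.60 ± 1.26 (SD, n = 5) stood against 0.00 ± 0.05 in forestomach, where it was not well above background. It was at least 134-fold higher in liver than in forestomach. Cyp3a25 had a liver mean of 8.37 ± 1.26 and was at least 250-fold higher than in lung and 254-fold higher than in forestomach. Cyp3a59 was at least 102-fold higher in liver than in lung. Cyp3a13 departed from this order: its forestomach mean of 3.53 ± 0.45 and liver mean of 3.00 ± 1.49 differed by less than their spread (adjusted p = 0.507), and both were above lung on this probe, which was not well above background there. The other Cyp3a13 probe was detected in lung (mean 0.34, against 1.29 in liver and 0.42 in forestomach), and on it liver exceeded forestomach by 0.87 ± 0.25 (SE, adjusted p = 0.0123).

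Among the fatty acid hydroxylases, Cyp4a12a, the enzyme that predominates in male liver and kidney, had 8.33, 8.24, 8.25, 8.71 and 4.46 in the vehicle livers. Only the array on the third slide departed from the others. It was called higher than in forestomach, where it was not well above background on any vehicle array (limma, adjusted p = 4.36e-08). Cyp4a10, a classical PPAR alpha target, exceeded lung by 3.77 on the log2 scale (the lung minus liver difference was -3.77 ± 0.68), while its neighbour Cyp4a14 was not well above background on most arrays and was called in no tissue pair. Cyp2a12, a testosterone hydroxylase, and Cyp2c70, which hydroxylates bile acids, were also called higher in liver than in lung, the latter by 7.03 (lung minus liver -7.03 ± 0.25, SE). Cyp2a12 was not well above background on any vehicle lung array, so no difference is given. Cyp2c29, an arachidonic acid epoxygenase, had 8.30, 8.50, 8.23, 8.39 and 6.68 in the vehicle livers. Cyp2d9, the male-predominant testosterone hydroxylase, had a liver mean of 6.24 ± 0.93. Cyp2r1, the vitamin D 25-hydroxylase, and Cyp4v3, a fatty acid hydroxylase of many tissues, were detected in all 3 tissues and were also highest in liver (3.19 ± 1.00 and 5.73 ± 1.28).

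In lung, 5 members led: Cyp4b1, Cyp2b10, Cyp2b9, Cyp4f18 and the pseudogene Cyp4b1-ps2. Cyp4b1, which activates furans and aromatic amines in airway epithelium, had 7.92, 8.09, 7.73, 7.86 and 8.47 in the lungs of vehicle mice 1 to 5, above every liver value (0.17 to 3.24) and every forestomach value (2.91 to 3.80). It was 26.2-fold higher in lung than in forestomach (4.71 ± 0.44 on the log2 scale, SE, limma, adjusted p = 4.42e-07). Cyp2b10, the classical CAR target in liver, was higher in lung than in the untreated liver: 5.37, 5.29, 5.16, 5.16 and 5.61 in lung against 0.21 to 3.20 in liver, a difference of 3.61 ± 0.50 (adjusted p = 2.14e-05). Cyp2b9, a female-predominant liver enzyme, had a lung mean of 3.01 ± 0.42 and was not well above background in liver or forestomach of these males, which gives at least 7.19-fold and 7.09-fold. Cyp4f18, which hydroxylates leukotriene B4 and is expressed by leukocytes, had 2.27 ± 0.50 in lung. Cyp4b1-ps2 had 1.15 ± 0.10 and was not well above background on any vehicle array of the other tissues.

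Cyp2f2, the naphthalene-activating enzyme of club cells, was not particular to lung in these arrays. Its means were 6.66 ± 0.31 in lung, 6.50 ± 0.53 in liver and 5.57 ± 0.10 in forestomach. Lung and liver did not differ beyond their spread (0.16 ± 0.21, SE, adjusted p = 0.629), and lung exceeded forestomach by 1.09 ± 0.21 (adjusted p = 6.13e-04). Cyp2e1, the ethanol and small-molecule oxidase, had 7.81 ± 0.84 in liver, and its lung values varied with Adipoq, an adipocyte gene: the highest vehicle value (3.95, mouse 2) came with Adipoq 3.86. In forestomach, the Cyp2e1 values of 3.84 and 4.95 in mice 3 and 5 came with Adipoq 4.43 and 5.61, while mice 1, 2 and 4 had Cyp2e1 of 1.18, 0.44 and 0.82 with Adipoq not well above background. The part of adipose tissue in these Cyp2e1 levels was not tested.

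In forestomach, 4 members led. Cyp2s1, an enzyme of epithelia exposed to the outside, had 4.94, 5.24, 5.00, 5.00 and 4.94 in vehicle mice 1 to 5, against 3.42 ± 0.29 in lung and -1.72 ± 0.80 in liver. Its lead over lung was steady from mouse to mouse (lung minus forestomach -1.61 ± 0.28, SE, limma, adjusted p = 2.91e-04). Cyp4f39, which makes the ultra-long-chain hydroxy fatty acids of the epidermal barrier, had 3.12, 4.05, 2.62, 3.45 and 3.39 and led lung by 2.79 (lung minus forestomach -2.79 ± 0.19, SE), while in liver it was not well above background. Cyp2c66 and Cyp2c65, gastrointestinal members of the Cyp2c cluster, had means of 3.13 ± 2.70 and 2.34 ± 2.07, and these means hide separate sets of arrays. Cyp2c66 was 6.57 and 5.46 in mice 1 and 4, whose arrays were high in Atp4a, and 0.66, 1.87 and 1.11 in mice 2, 3 and 5. Without the arrays high in Atp4a, 16 rather than 19 members were called between lung and forestomach and 51, as before, between liver and forestomach.

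Probes of some genes did not tell the same story. For Cyp2j13, Cyp2j8, Cyp2c38 and Cyp3a13, probes went opposite ways in a comparison in which one of them was called. The quoted Cyp2j8 probe, for instance, had a lung minus liver difference of -3.88 ± 0.46 (SE) and the other Cyp2j8 probe one of 0.11 ± 0.09. In no comparison were 2 probes of a gene called in opposite directions.

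Promoter sequences are shown for 6 members that stand for the 3 patterns: the liver-led Cyp3a11 and Cyp2c29, the lung-led Cyp4b1 and Cyp2b10, and the forestomach-led Cyp2s1 and Cyp4f39. Each is the 250 bases before the RefSeq start of the gene in GRCm38.p6, written in the direction of transcription. The windows are chr5:145879855-145880104, minus strand (Cyp3a11), chr19:39286835-39287084, plus strand (Cyp2c29), chr4:115647722-115647971, minus strand (Cyp4b1), chr7:25897408-25897657, plus strand (Cyp2b10), chr7:25816526-25816775, minus strand (Cyp2s1) and chr17:32452473-32452722, plus strand (Cyp4f39). Capitals mark every match on either strand to 5 motifs. GCGTG is the core of the aryl hydrocarbon receptor site, and read from the other strand it appears as CACGC in the sequences. TATAAA spells the box that positions transcription at many tissue-restricted genes. It was counted at any place in the window, so a match need not be such a box. GTTAAT belongs to sites of the liver factor HNF1, and CAAAGTC to those of HNF4. The last motif, bound by C/EBP factors, is TTGCNNAA.
Cyp3a11: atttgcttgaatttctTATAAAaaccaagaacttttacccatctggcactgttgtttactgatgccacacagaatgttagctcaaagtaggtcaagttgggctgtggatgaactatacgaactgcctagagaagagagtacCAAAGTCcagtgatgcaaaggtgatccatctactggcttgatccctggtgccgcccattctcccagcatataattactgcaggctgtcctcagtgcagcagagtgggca
Cyp2c29: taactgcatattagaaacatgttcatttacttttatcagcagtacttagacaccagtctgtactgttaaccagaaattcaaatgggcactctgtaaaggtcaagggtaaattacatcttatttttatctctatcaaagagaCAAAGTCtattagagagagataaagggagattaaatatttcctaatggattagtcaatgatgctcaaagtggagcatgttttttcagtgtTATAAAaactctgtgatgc
Cyp4b1: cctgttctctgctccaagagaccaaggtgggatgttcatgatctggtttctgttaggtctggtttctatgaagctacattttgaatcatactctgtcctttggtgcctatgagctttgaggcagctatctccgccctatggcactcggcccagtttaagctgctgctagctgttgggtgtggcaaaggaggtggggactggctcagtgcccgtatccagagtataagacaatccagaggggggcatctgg
Cyp2b10: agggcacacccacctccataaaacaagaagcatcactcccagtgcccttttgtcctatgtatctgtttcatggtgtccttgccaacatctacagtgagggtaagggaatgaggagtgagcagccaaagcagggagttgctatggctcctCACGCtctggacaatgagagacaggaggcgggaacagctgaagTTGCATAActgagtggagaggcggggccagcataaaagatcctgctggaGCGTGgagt
Cyp2s1: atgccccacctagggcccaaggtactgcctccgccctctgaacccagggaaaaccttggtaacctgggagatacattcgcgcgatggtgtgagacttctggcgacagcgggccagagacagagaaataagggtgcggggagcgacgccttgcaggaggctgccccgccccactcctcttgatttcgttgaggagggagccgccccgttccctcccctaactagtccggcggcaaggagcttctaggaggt
Cyp4f39: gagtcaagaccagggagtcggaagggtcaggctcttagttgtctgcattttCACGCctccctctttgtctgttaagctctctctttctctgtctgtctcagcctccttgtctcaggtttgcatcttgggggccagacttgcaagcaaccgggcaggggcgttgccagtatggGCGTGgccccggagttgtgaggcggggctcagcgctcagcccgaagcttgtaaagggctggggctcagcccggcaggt

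The liver-led promoters carry TATAAA and CAAAGTC in capitals (TATAAA begins 234 bases before the start in Cyp3a11 and 19 bases before it in Cyp2c29, and CAAAGTC begins 109 bases before it in both), Cyp2b10 and Cyp4f39 carry matches to GCGTG, and Cyp4b1 and Cyp2s1 carry no match in this window. No 2 matches overlap. A promoter was at hand for 57 of the 75 members and for 27025 genes or transcripts in all. TATAAA was found in 58.1% of the 31 liver-led members with a promoter and in 13.0% of all promoters, and CAAAGTC in 32.3% and 3.80%. These motifs were not confined to liver-led members: CAAAGTC was found in 2 of the 4 lung-led and 2 of the 4 forestomach-led members with a promoter, and TATAAA in 0 and 2 of them. TTGCNNAA was found in 21.1% of the 57 members and 9.55% of all promoters, and GTTAAT in 10.5% and 6.52%. GCGTG was less frequent among the members (15.8%) than among all promoters (28.2%). Neighbouring copies share their promoter sequence, so the members are not independent, and a match is not evidence of binding.

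With dose, no member was called at any dose in any tissue. At the high dose 1.93% of all genes were called in lung, 0.00538% in liver and 0.102% in forestomach, so that the background itself was near 0 outside lung. At the low and medium dose the shares were 0.449% and 0.638% in lung and 0 in both other tissues. Among the 95 member probes, an unadjusted p under 0.05 was reached by 4, 10 and 13 in lung at the low, medium and high dose (9.07%, 14.1% and 18.4% of all probes), by 0, 1 and 5 in liver (3.41%, 4.53% and 7.46%) and by 5, 26 and 6 in forestomach (4.62%, 5.68% and 8.70%). The trend over dose called no member either, where 1.64%, 0.0135% and 0.0888% of all genes were called in lung, liver and forestomach. For the trend, 10, 8 and 5 member probes had an unadjusted p under 0.05 in these tissues (17.8%, 8.34% and 8.57% of all probes). None of this shows that the members did not change, and intervals are given below.

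**Figure D2:**
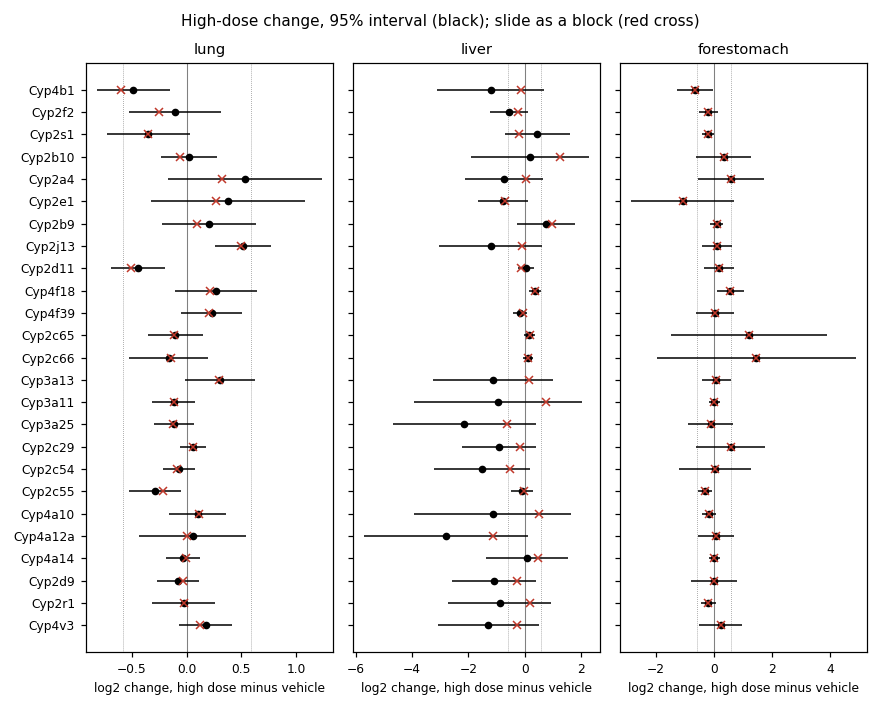
Change at the high dose (log2, high minus vehicle, n = 5 and 5 mice) of 25 members in each tissue, with the 95% interval from limma (black) and the change with slide as a block (red cross). Dotted lines mark 1.5-fold, and the axes differ between tissues. Lung intervals are narrow, while liver intervals span several units and move toward 0 with slide as a block for most members.

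In lung the median change of all 75 members at the high dose was 0.01 (range -0.49 to 0.53), against -0.00382 over all probes. Only 24 of the 75 were detected in vehicle lung. The median also covers the others, whose signal near background limits the change that could be seen. Among members well above background on every high-dose array, 2 had all high-dose mice beyond every vehicle mouse, Cyp4b1 and Cyp2j13 (3 of 95 member probes did not overlap between the groups, the third being that of Cyp2c55, which was below the reference and mostly not well above background, where 6.14% of all probes did not overlap). Cyp4b1 was 7.48, 7.43, 7.37, 7.71 and 7.64 in high-dose mice 16 to 20, and all 5 were below the vehicle minimum of 7.73. The low-dose and medium-dose mice, at 7.50 to 8.23 and 7.51 to 8.39, overlapped both. Its change was -0.49 ± 0.16 (SE, 95% interval -0.82 to -0.15, limma, adjusted p = 0.0788), which missed the threshold.

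Slide changed that call. With slide as a block Cyp4b1 fell by 0.60 on the log2 scale (-0.60 ± 0.09, limma, adjusted p = 3.17e-04), past both thresholds, and the trend did so too (-0.59 from 0 to 100 mg/kg-bw/day, adjusted p = 1.63e-04), where 2.02% and 1.74% of all genes were called. Within the 3 lung slides the high-dose mean minus the vehicle mean was -0.55, -0.42 and -0.79, with few mice per group on each. Every high-dose value lay below every vehicle value, so this direction had to hold on each slide and adds no support. The scaling mattered as well: with each array centred on its median instead of loess, which moved bright lung probes up by a median of 0.31, the change of Cyp4b1 was 0.0048. Relative to bright probes the direction was thus kept, and on that scale itself there was no decrease. Marker lists were read beside this change. The mean of the 2 club cell genes on the array was 4.46 to 6.85 in vehicle and 4.94 to 7.10 at the high dose, and that of the 3 ciliated cell genes 3.63 to 4.43 and 3.83 to 4.33, so that both overlapped. The mean of the 3 endothelial genes was 4.81 to 5.23 in vehicle and, just clear of it, 5.23 to 5.61 at the high dose. All of these genes were well above background on every array of both groups, and the part of cell composition in the change of Cyp4b1 was not tested.

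Cyp2j13, a member of the fatty acid epoxygenase subfamily, was higher at the high dose, at low levels. It was 0.38, 0.73, 0.34, 0.24 and -0.05 in vehicle mice and 0.79, 0.84, 0.75, 0.95 and 0.86 in high-dose mice, and the groups did not overlap. The change was 0.51 ± 0.12 (SE, 95% interval 0.25 to 0.77, limma, adjusted p = 0.0144), past the p threshold and short of 1.5-fold. The p threshold alone was passed by 2 of 75 members at the high dose (8.42% of all genes) and by the same 2 in the trend (7.42%). Cyp2j13 was called when vehicle mouse 2 was left out (0.61, limma, adjusted p = 0.00305). The Cyp1a1 of that library goes against its label, and it also held the highest vehicle value of Cyp2j13 (0.73). The 2 other Cyp2j13 probes did not follow (-0.06 ± 0.08 and 0.06 ± 0.09), so the difference rests on 1 probe. Cyp2d11, named here because it was the other member past the p threshold and chosen after its values were seen, was 0.44, 0.66, 0.67, 0.84 and 0.65 at the high dose against 0.76 to 1.47 in vehicle. Its change was -0.45 ± 0.12 (adjusted p = 0.0250), also short of 1.5-fold, with 4 of 5 mice below all vehicle mice.

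The other airway enzymes overlapped with the vehicle mice. Cyp2b10 changed by 0.02 (95% interval -0.24 to 0.27), which leaves out a change of 1.5-fold in either direction. Cyp2f2 changed by -0.10 (interval -0.53 to 0.32) and Cyp2s1 by -0.35 (interval -0.73 to 0.03). Cyp2a4, a steroid hydroxylase, had a high-dose value of 5.57 in mouse 20 against 4.35 to 4.67 in the other 4, and the same lung array had the highest Cyp2e1 (4.78) and Adipoq (4.61). Of the 5 airway bioactivation enzymes on the array (Cyp2f2, Cyp4b1, Cyp2s1, Cyp2b10 and Cyp2e1), none was called, 2 had a positive and 3 a negative change, and their median was -0.10. With slide as a block Cyp4b1 was called, 1 change was positive and the median was -0.25.

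**Figure D3:**
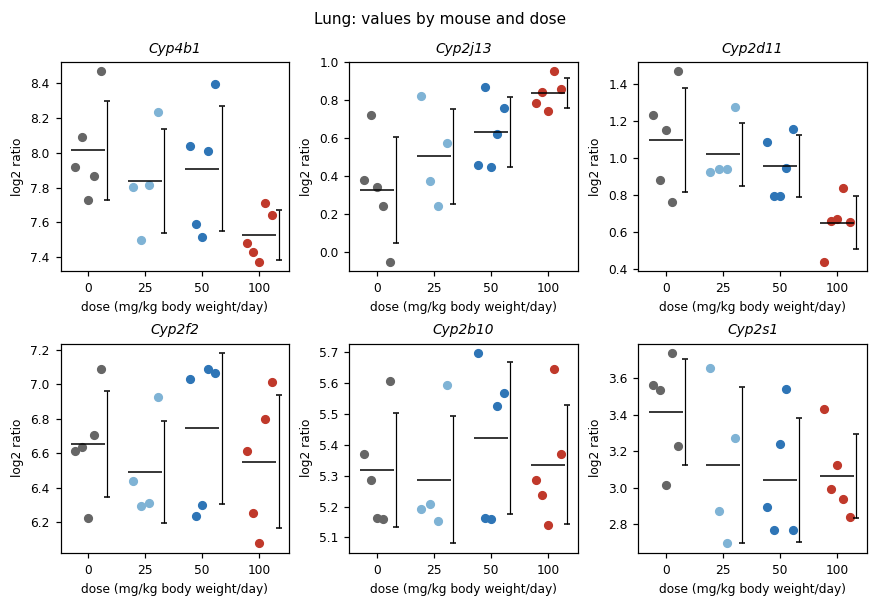
Lung log2 ratio by daily dose for 6 members, 1 point per mouse (4 at 25 mg/kg-bw/day, 5 otherwise), with the group mean as a line and the SD as a bar beside it. The high-dose points of Cyp4b1 lie below and those of Cyp2j13 above every vehicle point, and Cyp2b10, Cyp2f2 and Cyp2s1 overlap. The scales differ between panels and do not start at 0.

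In liver, the values turned on the slide. Of the 45 liver-led members, 44 had a lower mean on the third slide than on the other slides, with a median difference of -2.27, against 0.011 over all probes. The high-dose group had 3 of its 5 arrays there and the vehicle group 1 of 5. The median member change at the high dose was -0.72 with 56 of 75 negative, and -0.05 with slide as a block. No member's decrease in the fit without slide is therefore read as a dose effect here.

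Cyp3a11, the classical PXR target, was 8.26 and 9.74 in high-dose mice 16 and 17 and 5.80, 5.81 and 3.67 in mice 18 to 20 on the third slide. Vehicle mice had 7.48 to 8.78 and, on the third slide, 5.51, so that 1 mouse of the first set lay above all vehicle mice and the second set lay on both sides of its only vehicle mouse. Its change was -0.95 ± 1.42 (SE), and 0.76 with slide as a block (adjusted p = 0.598). Cyp2b10, the CAR target, was 2.58 and 4.30 in mice 16 and 17 and 0.38 to 1.34 in mice 18 to 20, against 1.08 to 3.20 and, on the third slide, 0.21 in vehicle. Medium-dose mice 12 to 14 had 4.22, 4.31 and 3.58, all above the vehicle mice, and low-dose mice 7 to 9 had 3.74, 4.03 and 1.53. The high-dose change was 0.17 (95% interval -1.91 to 2.26), and 1.24 ± 0.44 (SE) with slide as a block (adjusted p = 0.230). Of the 10 members listed as induced through CAR or PXR, 0 were called, 3 were positive with a median of -0.49, and 5 were positive with a median of 0.05 with slide as a block.

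**Figure D4:**
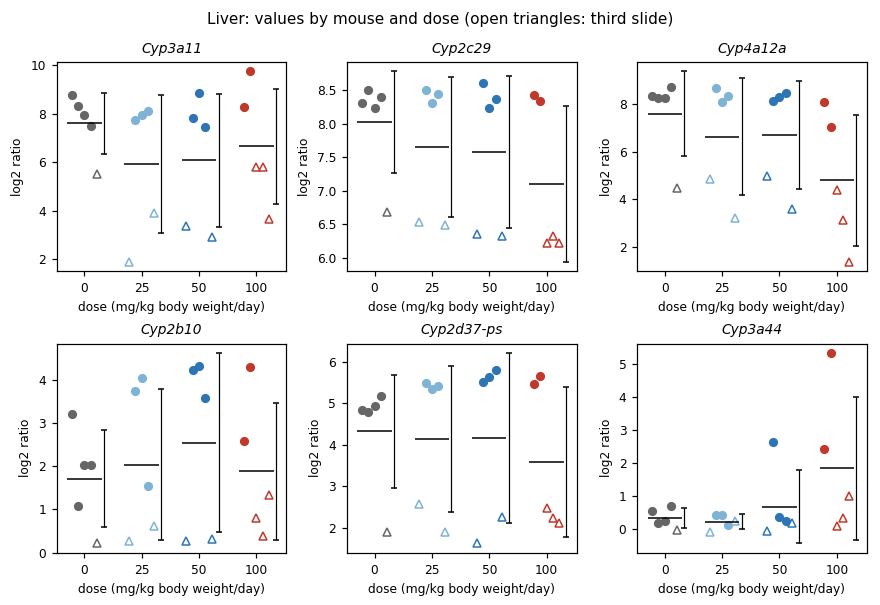
Liver log2 ratio by daily dose for 6 members, 1 point per mouse (n = 5 per dose), with the group mean as a line and the SD as a bar. Open triangles are arrays of the third slide, which lie lowest at every dose for Cyp2c29, Cyp4a12a and Cyp2d37-ps, so group means follow how many triangles a group holds.

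Without the third slide, 2 members were called in liver at the high dose, Cyp2d37-ps and Cyp3a44. The pseudogene Cyp2d37-ps was 4.82, 4.77, 4.92 and 5.17 in vehicle mice 1 to 4, and every dosed mouse on the same slides was higher: 5.48, 5.33 and 5.40 with 25 mg/kg-bw/day, 5.50, 5.62 and 5.80 with 50, and 5.45 and 5.66 with 100. On the third slide it was 1.89 in vehicle and 1.62 to 2.58 in dosed mice, which overlapped. The change at the high dose was -0.73 ± 1.05 (SE) without slide, and it rose by 0.63 with slide as a block (limma, adjusted p = 0.0438) and by 0.64 without the third slide (adjusted p = 0.0188), where 0.344% and 1.04% of all genes were called. Cyp3a44, a female-predominant member, was 0.55, 0.20, 0.25 and 0.71 in vehicle mice 1 to 4 and 2.43 and 5.32 in high-dose mice 16 and 17. Medium-dose mouse 12 had 2.65, mice 13 and 14 had 0.36 and 0.24, and mice 18 to 20 had 0.09, 0.33 and 1.00. Its change was 1.499 ± 0.73 (adjusted p = 0.669), 1.79 with slide as a block (adjusted p = 0.0953) and 3.45 without the third slide (adjusted p = 0.0154), the last from 2 high-dose mice.

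Mouse 17 was the high point for several inducible or female-predominant members. Its liver had 4.38 for Cyp4a14, a PPAR alpha target, 3.92 for Cyp2b13 and 3.47 for Cyp2b9, while no other high-dose liver exceeded 0.79, 0.23 and 0.25. That liver also had the highest Cyp1a1 of all livers (6.68). Of the 6 female-predominant members on the array, 0 were called. With slide as a block all 6 had a positive change (median 0.95), against 32 of all 75 members. Without the block 4 were positive (median 0.38), against 19 of 75. The 3 male-predominant members, Cyp2d9, Cyp4a12a and Cyp4a12b, were all negative (median -1.65, and -0.78 with slide as a block), with 0 called. All mice were male, and these lists were chosen with earlier results of the data known.

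Of the other liver members named, none was called. Cyp2c50, an epoxygenase with a liver mean of 5.17 on the third slide and 5.62 on the other slides, was 5.60, 5.51, 4.92, 4.99 and 4.90 at the high dose against 5.53 to 5.91 in vehicle, and the last 3 of these high-dose values came from the third slide. Its change was -0.48 ± 0.15 (SE, adjusted p = 0.477), and -0.38 with slide as a block (adjusted p = 0.0521). Cyp4f18 changed by 0.35 (limma, adjusted p = 0.424), with high-dose values between 0.05 and 0.24, near the reference. Cyp2e1 changed by -0.77 (95% interval -1.65 to 0.12) and Cyp2f2 by -0.56 (-1.23 to 0.12). The 4 PPAR alpha induced members had 1 positive change without and 4 with slide as a block (medians -0.82 and 0.41), and none was called.

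In forestomach, several members moved with the markers of glandular stomach. Cyp2c66 was 6.38, 5.69, 4.95, 5.66 and 0.35 in high-dose mice 16 to 20, and mouse 20 was the only high-dose array low in Atp4a. Over all 20 arrays Cyp2c66 lay between 4.95 and 6.60 where Atp4a was high and between 0.35 and 1.87 where it was low, and Cyp2c65 between 4.04 and 5.47 and between 0.15 and 1.37. Their high-dose changes of 1.47 and 1.21 had intervals of -1.94 to 4.89 and -1.48 to 3.90, and were -0.87 and -0.71 without the 12 arrays. Cyp2d26 had the largest positive change of a member at the high dose, 1.82 ± 0.81 (SE, adjusted p = 0.532), with 4 of 5 mice beyond the vehicle range, and 0.16 without those arrays. Without them 1 high-dose mouse (20) remained against 3 vehicle mice, so these values rest on a single array, assumed to vary like the other groups. The mean of the 7 glandular markers ranged from 0.27 to 6.58 over the 20 arrays, and its part in these changes was not tested beyond these values.

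At the medium dose, 27.4% of member probes had an unadjusted p under 0.05, against 5.68% of all probes, and none passed the adjusted threshold. Cyp2d26 changed by 2.79 (adjusted p = 0.773) and Cyp2d10 by 2.26 (adjusted p = 0.759), and both are liver-led. Medium-dose mouse 12, with forestomach Alb at 4.79 and Cps1 at 2.06, both hepatocyte genes, had the highest Cyp2d10, Cyp2c70 and Cyp2d26 of the group (5.30, 5.30 and 4.75). Mouse 15 had Alb 4.30 with Cyp2c70 2.52 and Cyp2d26 2.32. The other 3 medium-dose mice had Alb 1.90 to 2.84 with Cyp2c70 0.63 to 0.93, but their Cyp2d26, at 3.30, 4.03 and 3.77, was above that of mouse 15, and their arrays were high in Atp4a. Over the medium-dose mice, the order of Cyp2d26 differed from that of Alb. Cps1 was not well above background on the other 19 forestomach arrays. The part of liver RNA and of glandular stomach was not tested.

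**Figure D5:**
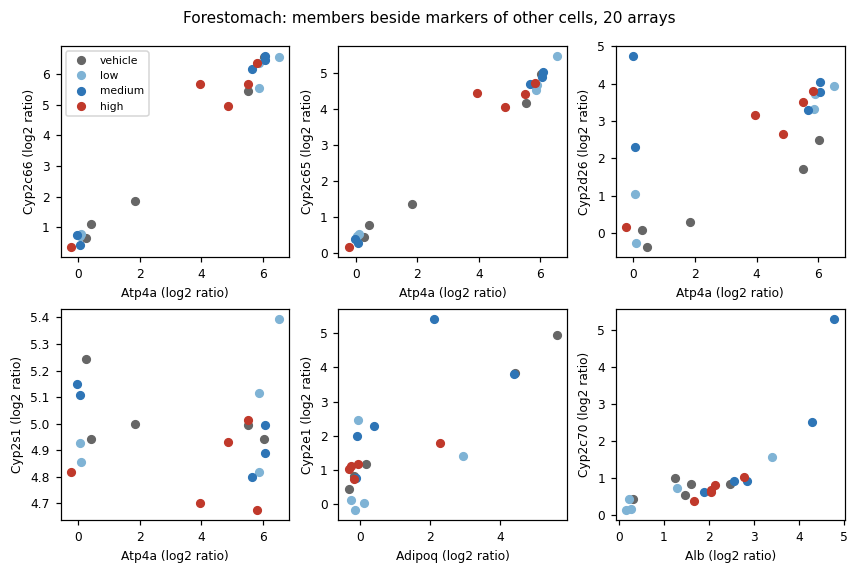
Log2 ratio of a member (vertical) against that of a marker of other cells (horizontal) on the 20 forestomach arrays, coloured by dose. Cyp2c66 and Cyp2c65 split with Atp4a and Cyp2s1 does not. Cyp2e1 is high where Adipoq is highest, with exceptions. Its highest value (5.42, medium-dose mouse 12) came with Adipoq 2.12, and low-dose mouse 8 had 1.42 with Adipoq 2.94. The highest Cyp2c70 is in the array with the highest Alb.

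The forestomach-led Cyp2s1 and Cyp4f39, and also Cyp3a13, Cyp2f2 and Cyp4b1, showed no called change. Cyp2s1 was 4.67, 5.01, 4.93, 4.70 and 4.82 at the high dose, a change of -0.20 ± 0.11 (SE, 95% interval -0.42 to 0.02, adjusted p = 0.632). Cyp4f39 changed by 0.04 (interval -0.63 to 0.70), Cyp3a13 by 0.09 (-0.41 to 0.60) and Cyp2f2 by -0.19 (-0.51 to 0.14). Cyp4b1 was 3.06, 2.91, 2.97, 3.80 and 3.78 in vehicle and 2.66, 2.91, 3.09, 2.59 and 2.08 at the high dose. The medium-dose mice had 1.78 to 2.90. Neither its change of -0.95 ± 0.30 at the medium dose (adjusted p = 0.841) nor that of -0.64 ± 0.30 at the high dose (adjusted p = 0.564) passed.

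Between tissues, the high-dose change of no member was called different, where 0.439% (lung minus liver), 1.03% (lung minus forestomach) and 0.0404% (liver minus forestomach) of all genes were. The lung and forestomach changes of Cyp4b1, both negative, differed by 0.15 ± 0.36 (SE, adjusted p = 0.954), and those of Cyp2j13 by 0.40 ± 0.29. With slide as a block 2 members, Cyp2d37-ps and Cyp2j13, were called between lung and liver (1.81% of all genes).

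The partners of P450 enzymes were followed from a list of 19 genes, all on the array: electron donors, nuclear receptors, liver transcription factors, heme enzymes, epoxide hydrolases and the membrane partner Pgrmc1. Of these, 1 was called: Ephx1, the microsomal epoxide hydrolase that acts on P450 products, in lung and in no other tissue. It was 1.504, 1.5001, 1.26, 1.32 and 1.29 in vehicle lungs and 2.33, 2.53, 2.31, 2.29 and 2.30 at the high dose, with no overlap, and rose by 0.59, 0.66 and 0.98 at the low, medium and high dose (limma, adjusted p = 1.30e-06 at the high dose). Its high-dose change in lung exceeded that in forestomach by 0.87 ± 0.20 (SE, limma, adjusted p = 0.0220), which was called, and that in liver by 0.51 ± 0.21 (adjusted p = 0.397), which was not.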

How the data were processed

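The authors hybridized Cy5-labelled tissue RNA with Cy3-labelled reference RNA to Agilent mouse arrays, without dye swap. The deposited scanner files hold the intensity of each spot in both dyes, neither background-corrected nor normalized, and per the file headers other columns hold flags per spot (Feature Extraction 10.7.3.1). A deposited table holds processed log2 ratios by the authors (r with the values used here 0.967 to 0.999 over arrays) and served as an alternative. The number of arrays limits the precision.

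Median intensities without background correction, as in the study, were loess-normalized within arrays (limma 3.58.1, R 4.3.3), control and non-uniform spots were left out, and repeated spots were averaged to 55681 probes. Probes were named by accession through RefSeq (GRCm38.p6), which matched 26413 probes to 20018 symbols; the file headers state mm9, and coordinates are printed only for RefSeq promoters. For each tissue, limma was fitted to the 4 dose groups, with dose as a number for the trend; the high-dose change was compared between tissues, and vehicle arrays were compared between tissues. In place of the study's shrunken-variance F test, limma's moderated test was used, with the study's thresholds.

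Members and lists were chosen with earlier results of these data known. Named are the members leading a tissue most, those called, those whose high-dose mice all lay beyond the vehicle mice, a list of 16 well-studied genes, and genes with disagreeing probes; others are said to be chosen after their values were seen. On simulated data, 95%, 86% and 90% of 2-fold changes were recovered at the high dose in lung, liver and forestomach. The changes were placed in probes drawn at random from all probes. The noise was independent between arrays, with no slide effect or mixture of cells. These shares therefore do not hold for members with wide intervals, as many had in liver and forestomach. Mouse numbers pair tissues of the same animal, as the titles give them, but same-mouse deviations correlated by medians of -0.03 (lung and liver) and 0.03 (both other pairs). Alternatives were median centring, normexp with an offset of 50, the deposited table, slide or mouse as a block, a filter on dim probes, other probe choices, and leaving out mice or the third liver slide. Leaving out the forestomach arrays high in Atp4a was chosen after seeing the data.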

Additional observations from a re-analysis of the deposited data

Results flagged for a closer look

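In 9 of 60 groups checked, 1 mouse lay far from the others of its group. Several of these groups share an array, and the members were chosen with earlier results known. The count is therefore not set against a chance rate. Vehicle mouse 5, whose liver array was on the third slide, was low in liver for Cyp2c29 (6.68, others 8.23 to 8.50), Cyp4a12a (4.46, others 8.24 to 8.71), Cyp2d37-ps (1.89, others 4.77 to 5.17) and Cyp2j5 (0.24, others 2.93 to 3.00). High-dose mouse 20 was low in forestomach for Cyp2c65 (0.15, others 4.04 to 4.70) and Cyp2c66 (0.35, others 4.95 to 6.38), and its Atp4a was not well above background. The same mouse was high in lung for Cyp2a4 (5.57, others 4.35 to 4.67). High-dose mouse 17 was high in liver for Cyp4a14 (4.38, others -0.38 to 0.79). Vehicle mouse 2 was high in forestomach for Cyp2s1 (5.24, others 4.94 to 5.00).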

How the results depend on the processing

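No dose comparison called a member with the settings of the report, and most alternatives left that at 0. With slide as a block, 1 member was called in lung at the high dose and 1 in the lung trend (Cyp4b1 in both), 1 in liver at the high dose (Cyp2d37-ps) and 2 in the lung minus liver difference. Without the third liver slide, 1 member was called in liver at the medium dose (Cyp2d37-ps), and 2 at the high dose and in the trend (Cyp2d37-ps and Cyp3a44). The shares of all genes called were 0.522%, 1.04% and 1.25%. In the lung minus liver difference 3 members were called (with Cyp3a41b), and in the liver minus forestomach difference 1 (Cyp3a44). There, 1.46% and 0.229% of all genes were called. Median centring called 1 member in lung at the high dose (Cyp4f18, 0.60), where 3208 of 37163 genes were called, 3174 of them up. It called 9 rather than 19 members between vehicle lung and forestomach, where 4530 rather than 8983 genes were called. The change of Cyp2d37-ps in liver reversed, from -0.73 to 0.63 with slide as a block and 0.64 without the third slide, and the cause was not tested. When each mouse was left out in turn, 0 to 1 members were called in lung at the high dose (1 without vehicle mouse 2, Cyp2j13), 54 to 56 between vehicle lung and liver, 14 to 23 between lung and forestomach, 47 to 54 between liver and forestomach, and 0 in all other dose comparisons. With the mouse as a replicate block, 56, 19 and 52 members were called between vehicle tissues and 0 high-dose differences, and the block changed no call past a factor of 1.5. Normexp, the deposited table, the filter on dim probes and other probe choices changed no count by over 1.5 times. Signal limits the low members: 20 of 75 were not above background on all vehicle arrays of any tissue, the third liver slide included.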
